A study of Mus musculus with 2 samples.

Results

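The colony-stimulating factors and their receptors were examined as a family of 8 genes, 4 ligands (Csf1, Il34, Csf2 and Csf3) and 4 receptor chains (Csf1r, Csf2ra, Csf2rb and Csf3r), taken by symbol from the 33696 genes listed in the single-cell count matrices, and all 8 were found. The matrices came from subcutaneous CT26 tumors, grown from a murine colon carcinoma line in male BALB/c mice aged 6 to 8 weeks. One library was made from untreated tumors (UT) and one from tumors given BUP-Gel, a hydrogel that releases the local anesthetic bupivacaine, at 40 mg/kg of the drug. Both libraries were pooled from 3 tumors, and both were sorted into live CD45+ and CD45- cells that were mixed again before loading. The parts of CD45+ to CD45- cells were 4 to 1 in the sample labels and 3 to 1 in the study's methods. Both groups share the tumor line, strain, sex and site, and the untreated tumors received no empty gel, so drug and carrier cannot be told apart. With 1 library per condition no test between conditions was possible, and every interval given here covers counting error only.

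Colony-stimulating factors are secreted proteins that keep myeloid cells alive and drive their proliferation and maturation. CSF1 and IL34 both bind the receptor tyrosine kinase CSF1R, on which macrophages depend. CSF2 (GM-CSF) binds a receptor made of a specific alpha chain, CSF2RA, and a beta chain, CSF2RB, that is also used by the interleukin 3 and interleukin 5 receptors, whereas CSF3 (G-CSF) binds a CSF3R homodimer and sets the output and release of neutrophils. Tumor cells, fibroblasts and activated T cells can make these ligands, and in tumors they are known for recruiting and sustaining macrophages and neutrophils.

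On mouse GRCm39, Csf1 (ENSMUSG00000014599) lies on chromosome 3 at 107648364 to 107667806 on the minus strand, and Il34 (ENSMUSG00000031750) on chromosome 8 at 111423928 to 111532584, also minus. Csf2 (ENSMUSG00000018916) is a gene of 4 exons on chromosome 11 at 54138097 to 54140493, minus strand. Csf3 (ENSMUSG00000038067) has 5 exons and lies on the same chromosome at 98592089 to 98594458, plus strand. Among the receptor chains, Csf2ra (ENSMUSG00000059326) is on chromosome 19 at 61212395 to 61216892, minus, Csf2rb (ENSMUSG00000071713) on chromosome 15 at 78209952 to 78238047, plus, and Csf3r (ENSMUSG00000028859) on chromosome 4 at 125918262 to 125938236, plus. Csf2rb2, a near-identical neighbor of Csf2rb that serves the interleukin 3 receptor in mice, ends 20030 bases before it, so the split of reads between this pair is uncertain.

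The promoters of Csf2 and Csf2rb are shown because Csf2 differed in opposite directions between T-like and tumor-like cells and Csf2rb, a chain of its receptor, marked the myeloid pattern. Each run is the 250 bases before the start of the gene's canonical transcript, read 5′ to 3′ on the gene's strand from GRCm39. These are chr11:54140494-54140743 (minus strand) for Csf2 and chr15:78209940-78210189 (plus) for Csf2rb. Capitals mark matches, on either strand, to the core of the conserved cytokine element CK-1 (GAGATTCC), to a PU.1-type motif (GAGGAAG) or to a C/EBP-type motif (TTNNGCAA).
Csf2: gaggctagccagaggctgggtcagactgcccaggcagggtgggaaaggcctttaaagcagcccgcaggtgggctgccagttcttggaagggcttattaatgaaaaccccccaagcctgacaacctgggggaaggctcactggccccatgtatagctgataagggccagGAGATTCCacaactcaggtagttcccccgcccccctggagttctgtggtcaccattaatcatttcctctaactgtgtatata
Csf2rb: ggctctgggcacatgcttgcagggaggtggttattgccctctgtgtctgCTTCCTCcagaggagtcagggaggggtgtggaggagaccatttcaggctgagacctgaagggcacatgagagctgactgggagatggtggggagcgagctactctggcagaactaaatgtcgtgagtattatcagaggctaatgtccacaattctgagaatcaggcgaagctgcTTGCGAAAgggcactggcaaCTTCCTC

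The CK-1 core was found at -82 to -75 in Csf2, counted from the transcript start, and it occurred in 0.760% of 21593 promoters of the same length. Its letters were shortened to this core after the sequences had been read. In Csf2rb all matches were on the opposite strand, with PU.1-type matches at -201 to -195 and -7 to -1 and a C/EBP-type match at -27 to -20. The PU.1-type letters occurred in 10.3% of all promoters and the C/EBP-type letters in 9.35%, so a match of either kind was common. No match overlapped another, and none of these letters, nor those of an AP-1 motif (TGANTCA, 6.14% of promoters), was found in the same window of Csf1, Il34, Csf2ra or Csf3r, which says only that these letters are absent from those windows.

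The libraries held 7556 (UT) and 7221 (BUP) cell barcodes with 83228442 and 89918925 UMIs, and 7163 and 6776 cells passed the filter, at a median of 8430 and 10420 UMIs. Of the barcodes, 76 occurred in both libraries. Clusters built without the members were named from marker genes, giving 1127 and 2433 tumor-like, 15 and 64 fibroblast-like, 465 and 329 NK-like, 629 and 868 T-like, 618 and 424 neutrophil-like and 2707 and 1393 macrophage-like cells (UT and BUP). Median depth was 20351 and 17757 UMIs in tumor-like cells, 8990 and 8754 in macrophage-like cells, 6024 and 6349 in T-like cells, 5537 and 5844 in NK-like cells and only 1878 and 2128 in neutrophil-like cells. In the tumor-like cells the epithelial markers Epcam, Cldn4, Cldn7, Krt7 and Krt19 were at or near 0, at most 0.144 counts per 1000000 UMIs of the class (CPM), while the keratins Krt8 (7.51 and 0.850 CPM) and Krt18 (12.5 and 10.8) were low. Krt20 (137 and 92.2 CPM), Esm1 (277 and 171), Ogn (188 and 231), Aspn (102 and 114) and Nppb (82.9 and 30.3) were the markers that carried the name. The summed level of Y-linked genes was 2.94 to 9.27 CPM in the tumor-like clusters, against 123 in fibroblast-like, 126 in macrophage-like and 228 in T-like cells. The cluster led by Ogn and Aspn made up 44.0% of tumor-like cells in UT and 60.6% in BUP. Clusters that carried lymphoid and phagocyte markers together were kept apart as mixed.

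Levels are given as CPM of the class, with exact Poisson 95% intervals, and were not compared between genes. The difference between the libraries is the log2 ratio of BUP over UT with an exact 95% interval. A gene was counted as higher or lower where it had at least 50 UMIs over both libraries, differed by at least 1.5-fold and had an interval that excluded 0. Of the 48 pairs of a member and a class, 31 had enough UMIs, and 4 were then higher and 5 lower in the BUP library. In tumor-like cells 4 of 8 members met the rule, against 6.92% of the 13374 genes with enough UMIs. The T-like cells had 2 of 6 against 6.25% of genes, NK-like cells 1 of 4 against 5.94%, macrophage-like cells 1 of 6 against 6.65%, fibroblast-like cells 1 of 2 against 20% and neutrophil-like cells 0 of 5 against 12.7%. Several of these members were at trace levels, as described gene by gene.

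**Figure D1:**
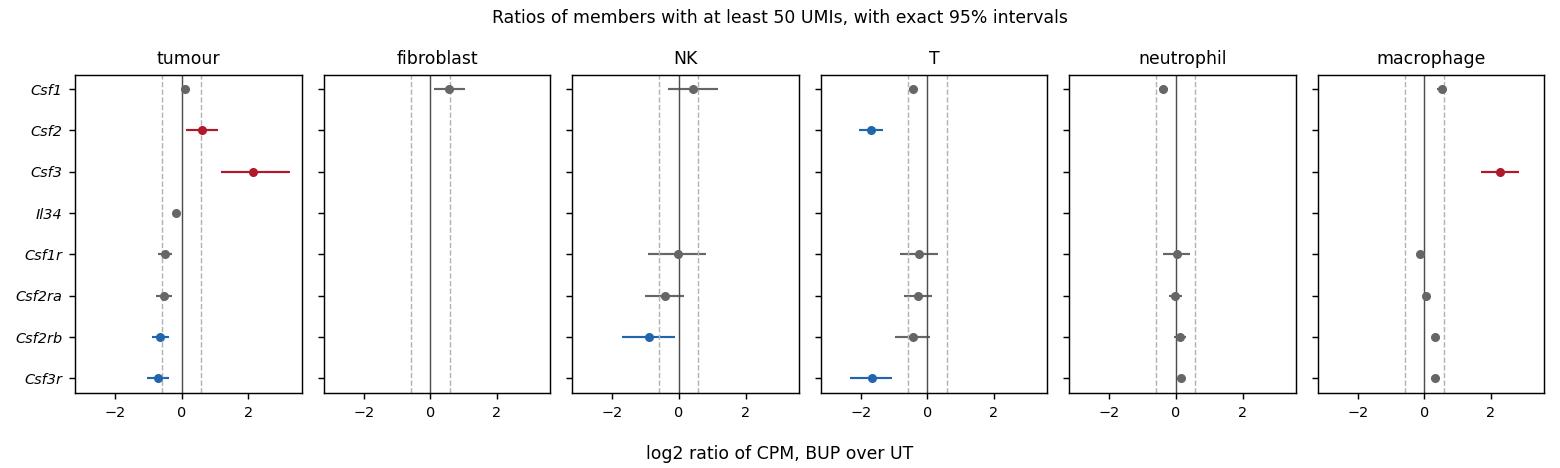
Log2 ratio of BUP over UT (horizontal axis) of each member with enough UMIs in each of 6 cell classes, with the exact 95% counting interval. Red marks members higher in BUP, blue lower and grey neither, the dashed lines mark 1.5-fold, and Csf2rb in fibroblast-like cells is left out because no UMI was counted in UT; the widest differences are those of Csf3 in macrophage-like (2.26) and tumor-like cells (2.13) and of Csf2 (-1.68) and Csf3r (-1.67) in T-like cells.

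Csf1, the main macrophage growth factor, was broadly present. Tumor-like cells held 52.4% and 69.5% of its UMIs in UT and BUP, against 11.1% and 4.89% in neutrophil-like cells. These shares also follow the make-up of the libraries. As CPM of the class it ran highest in neutrophil-like cells. There it stood at 798 CPM (95% interval 751 to 848) in UT and 614 CPM (568 to 662) in BUP, a log2 ratio of -0.38 (-0.52 to -0.24) that was short of 1.5-fold. These cells were shallow, and only 276 and 226 of them could be thinned to 2000 UMIs, the depth at which shares of cells were compared. At that depth 46.7% (40.7 to 52.8, exact binomial) of UT and 51.8% (45.0 to 58.4) of BUP neutrophil-like cells held a Csf1 UMI, so the share of cells went the other way from the CPM. Unthinned, the shares were 46.0% and 48.1%.

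In the UT library T-like (192 CPM, 180 to 205), tumor-like (181, 176 to 186) and fibroblast-like cells (154, 113 to 207) followed, with overlapping intervals. In the BUP library the order was fibroblast-like (228, 204 to 255), tumor-like (193, 189 to 197) and T-like cells (144, 135 to 153), with no overlap between neighbors. Tumor-like cells were nearly level between the libraries, with a log2 ratio of 0.09 (0.04 to 0.14), and T-like cells had -0.42 (-0.55 to -0.29). After thinning, 30.2% and 29.9% of tumor-like and 28.2% and 23.0% of T-like cells held a UMI, against 1.26% and 1.42% of NK-like cells. Unthinned, these were 83.4% and 84.4%, 50.7% and 46.9%, and 4.73% and 3.95%. NK-like cells were lowest at 9.75 and 13 CPM, near the traces of other classes.

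Macrophage-like cells, the main targets of CSF1, had little Csf1 themselves, at 35.9 (33.8 to 38.2) and 51.3 CPM (47.7 to 55.1), a log2 ratio of 0.51 (0.38 to 0.65). The clusters of this class went in different directions. Csf1 was higher in BUP in the cluster led by Cxcl3 and Thbs1, at 27.2 and 43.1 CPM (log2 ratio 0.67, 0.44 to 0.90), and in the cluster led by complement C1q genes, at 35.0 and 61.6 CPM (0.82, 0.62 to 1.02). It was lower in the cluster led by interferon-stimulated genes such as Rsad2 and Ifit2, at 104 and 62.5 CPM (-0.73, -1.23 to -0.26), where 46 UMIs were counted in BUP and 71.7% of them lay in 5 cells. A set of 8 neutrophil markers also differed in these clusters, from 642 to 1161 CPM in the first, 1720 to 4912 in the second and 3277 to 4143 in the third, and their part in the result was not tested.

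Among T-like cells, the CD8 cluster held most Csf1, at 251 (231 to 272) and 186 CPM (171 to 202). The cycling cluster had 140 and 115 CPM. In the small cluster with Il17a and Foxp3, genes of interleukin 17-producing and regulatory T cells, 52 UMIs in UT and 8 in BUP gave 134 and 23.4 CPM (log2 ratio -2.52, -3.80 to -1.43), and 78.8% of the UT UMIs came from 5 cells. Mast-like cells (35 and 34 cells) had 500 and 229 CPM from 41 and 16 UMIs, with 90.2% and 87.5% of them in 5 cells. Tumor-like clusters were alike in both libraries, with 215 and 214 CPM in the Ogn and Aspn cluster, 202 and 194 in the cluster led by Nppb, Esm1 and Krt20, and 122 and 140 in cycling cells.

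**Figure D2:**
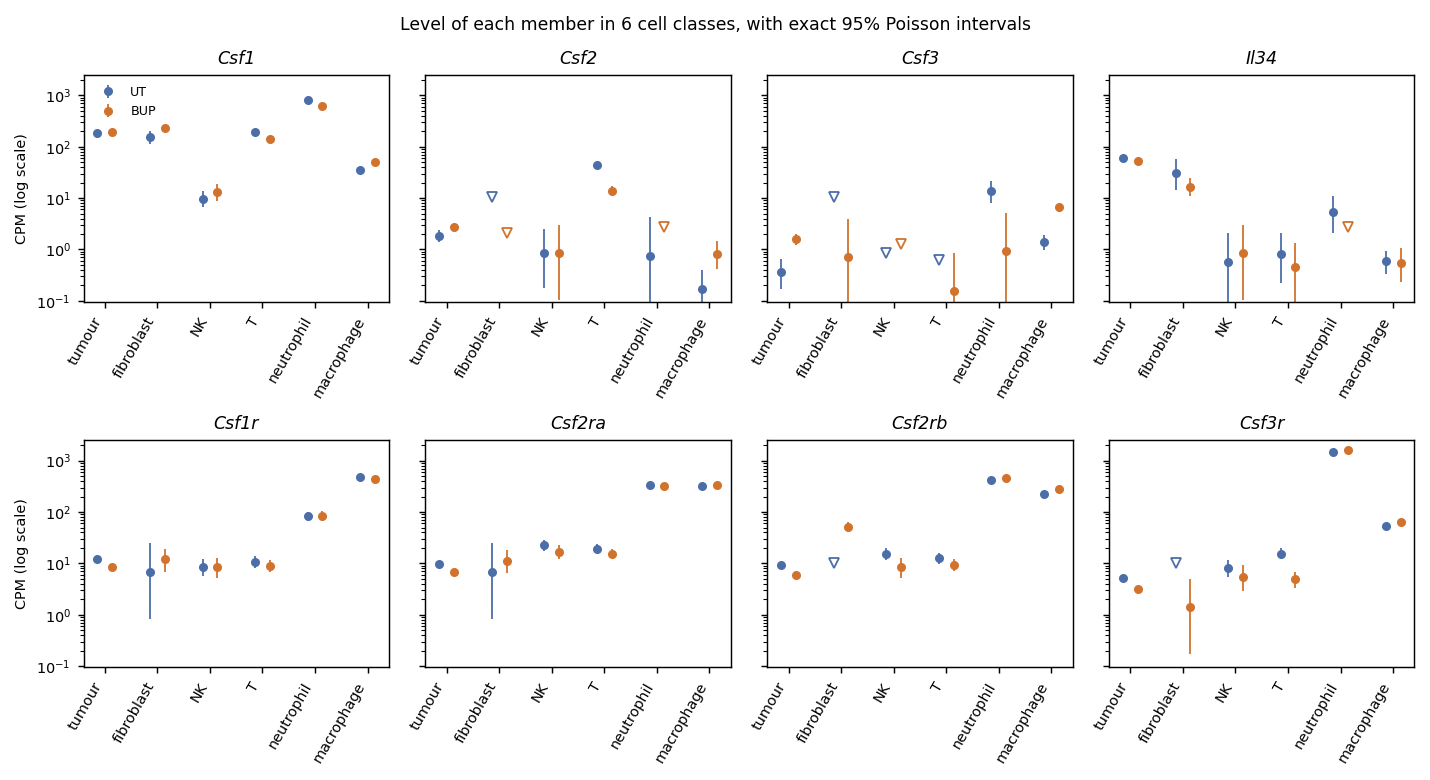
Level of each member (CPM, log axis) in 6 cell classes of the UT and BUP libraries, with exact Poisson 95% intervals. Open triangles stand for a count of 0, drawn at the level of 3 counts; Csf1 spans classes, Il34 is highest in tumor-like cells (59.8 and 52.4), Csf2 in T-like cells (45.0 and 14), and the receptor chains in macrophage-like and neutrophil-like cells.

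Il34, the other CSF1R ligand, was a tumor-compartment gene in both libraries. Tumor-like cells had 59.8 (56.9 to 62.7) and 52.4 CPM (50.4 to 54.4), a log2 ratio of -0.19 (-0.28 to -0.10), and held 87.8% and 91.3% of all its UMIs. Fibroblast-like cells followed with 30.9 (14.1 to 58.6, 9 UMIs) and 16.8 CPM (10.8 to 25.0, 24 UMIs). In NK-like, T-like, neutrophil-like and macrophage-like cells it stayed at or below 5.28 CPM, from at most 17 UMIs in a library. After thinning, 9.55% and 8.74% of tumor-like cells held an Il34 UMI, and none of 556 and 793 T-like cells did. The upper limits of 0.661% and 0.464% for the latter cover only the share with a UMI at that depth, not expression. Unthinned, the tumor-like shares were 55.6% and 46.5% and the T-like shares 0.636% and 0.346%.

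Within the tumor-like cells, Il34 was highest in the Nppb, Esm1 and Krt20 cluster, at 73.5 (68.8 to 78.5) and 68.4 CPM (64.7 to 72.3). The Ogn and Aspn cluster had 50.6 and 42 CPM and the cycling cluster 47.6 and 44.9. A CD45- cluster led by Xkr4 and Mir100hg, which the markers did not name, stood above all of these, at 128 (110 to 149) and 183 CPM (159 to 210), and it also held Csf1 at 275 and 249 CPM. Csf1 and Il34 were seen together in 2.73% and 2.65% of thinned tumor-like cells, against 2.88% and 2.62% from the product of their separate shares.

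Csf2, the gene for GM-CSF, had its highest level in T-like cells and was lower there in the BUP library. T-like cells had 45.0 CPM (39.2 to 51.4, 217 UMIs) in UT and 14 CPM (11.3 to 17.2, 92 UMIs) in BUP, a log2 ratio of -1.68 (-2.05 to -1.32). The UMIs lay in 49 of 629 and 38 of 868 cells, and the 5 richest cells held 57.1% and 56.5% of them, with up to 37 UMIs in a single cell. After thinning, 4.14% (2.64 to 6.14) and 2.02% (1.16 to 3.26) of T-like cells held a UMI, and these intervals overlap; unthinned, the shares were 7.79% and 4.38%. Neutrophil-like cells, which should lack the gene, had 1 UMI in UT and 0 in BUP.

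The direction was shared by each T-like cluster. CD8 T-like cells went from 34.1 (27.0 to 42.6) to 12.4 CPM (8.75 to 17), a log2 ratio of -1.46, and cycling T-like cells from 34.1 (26.7 to 42.8) to 11.2 CPM (7.77 to 15.5), a ratio of -1.61. The Il17a and Foxp3 cluster was richest in Csf2, at 170 (131 to 216) and 55.5 CPM (33.4 to 86.6), also a ratio of -1.61. Its UMIs came from 15 of 107 cells in UT and from 2 of 85 in BUP. NK-like cells, which can also make GM-CSF, gave 3 and 2 UMIs.

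In tumor-like cells Csf2 was a rare transcript and was higher in BUP, at 1.84 CPM (1.37 to 2.42, 51 UMIs) and 2.79 CPM (2.35 to 3.3, 138 UMIs), a log2 ratio of 0.60 (0.13 to 1.09). It was found in 27 of 1127 and 45 of 2433 cells, 2.40% and 1.85%, so the share of cells was not higher in BUP while the cells with 2 or more UMIs numbered 3 and 22. Most came from the Nppb, Esm1 and Krt20 cluster, at 3.12 (2.21 to 4.28) and 5.81 CPM (4.76 to 7.02), a ratio of 0.90 (0.35 to 1.47). At least 2 UMIs of T cell markers were present in 3 of the 27 and 0 of the 45 positive cells, and 5 and 3 of them had a doublet score in the top 6%. Thinned to 2000 UMIs, 0.0909% and 0.249% of tumor-like cells held a UMI, from 1 and 6 cells, and the log2 ratio was then 2.33 (-0.46 to 7.75), an interval that includes 0.

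The cells that carried Csf2 differed between the libraries. T-like cells held 64.6% (59.2 to 69.7) of its 336 UMIs in UT and 33.8% (28.2 to 39.8) of 272 in BUP. Tumor-like cells held 15.2% (11.5 to 19.5) and 50.7% (44.6 to 56.8), and mixed lymphoid and phagocyte clusters 16.7% and 8.46%. These shares also follow the make-up of the libraries, in which tumor-like cells were 15.7% of kept cells in UT and 35.9% in BUP and T-like cells 8.78% and 12.8%.

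**Figure D3:**
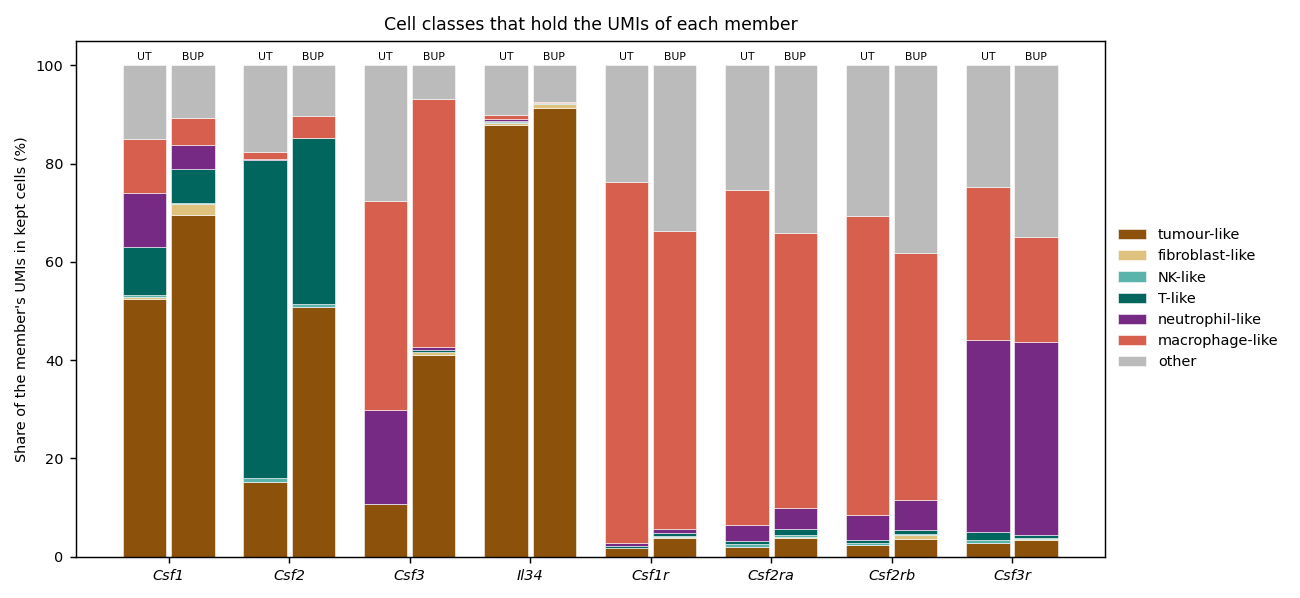
Percent of the UMIs of each member held by each cell class in the UT and BUP libraries. T-like cells hold 64.6% of Csf2 UMIs in UT and 33.8% in BUP, tumor-like cells 52.4% and 69.5% of Csf1, and macrophage-like cells 73.6% and 60.6% of Csf1r; the shares also move with the number of cells of each class that were loaded.

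Csf3, the gene for G-CSF, was rare throughout, with 94 UMIs in UT and 190 in BUP over all cells, and it came from few cells. In macrophage-like cells it was higher in BUP, at 1.37 CPM (0.982 to 1.87, 40 UMIs) and 6.56 CPM (5.32 to 8.02, 96 UMIs), a log2 ratio of 2.26 (1.71 to 2.83). Those UMIs lay in 10 of 2707 and 14 of 1393 cells, and 5 cells held 87.5% and 81.2% of them. The Cxcl3 and Thbs1 cluster held 22 of the 40 UMIs in UT and 93 of the 96 in BUP, at 1.97 (1.24 to 2.99) and 12.2 CPM (9.87 to 15), a ratio of 2.63 (1.95 to 3.37), with 6 and 12 positive cells and up to 25 UMIs in one. That cluster was 49.7% of macrophage-like cells in UT and 60.4% in BUP. The 8 neutrophil markers were at 642 and 1161 CPM in it and at 1408 and 2842 CPM over the class. Their part in the result was not tested. C1q cells had 13 and 3 UMIs, and interferon-led cells 5 in UT.

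Tumor-like cells gave 10 UMIs of Csf3 from 2 cells in UT and 78 UMIs from 11 cells in BUP, or 0.361 (0.173 to 0.664) and 1.58 CPM (1.25 to 1.97), a log2 ratio of 2.13 (1.17 to 3.24). A single BUP cell held 41 of the 78 UMIs, and the ratio was 1.17 with every cell weighted equally and 0.87 (-2.47 to 6.49, from 1 and 4 UMIs) in thinned cells, an interval that includes 0. All 10 UT UMIs lay in 2 cells, so no ratio could be computed without the 5 richest cells. Neutrophil-like cells went the other way, with 18 UMIs in 6 UT cells (13.6 CPM) and 1 UMI in BUP (0.915 CPM), too few to be counted as a difference. Mixed NK and macrophage cells had 22 UMIs in 1 UT cell. T-like cells, which served as background, had 0 and 1 UMI, and after thinning 0.114% and 0.590% of macrophage-like cells held Csf3.

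Csf1r, the receptor for CSF1 and IL34, was a macrophage and monocyte gene and differed little between the libraries in those classes. Macrophage-like cells had 491 (483 to 499) and 445 CPM (434 to 456), a log2 ratio of -0.14 (-0.19 to -0.10). Monocyte-like cells had 360 (330 to 392) and 411 CPM (368 to 459), and neutrophil-like cells 83 (68.2 to 100) and 84.2 CPM (67.8 to 103). At 2000 UMIs it was seen in 57.8% (55.9 to 59.7) and 54.8% (52.1 to 57.4) of macrophage-like cells and in 13% and 15.5% of neutrophil-like cells; unthinned, in 90.2% and 88.2% and in 14.4% and 17.9%. T-like, NK-like and tumor-like cells had 8.38 to 12.1 CPM and thinned shares of 1.08% to 1.98%. Erythroid-like cells, which should lack the gene, had 4 UMIs in UT (28.1 CPM, 7.66 to 72.0) and 2 in BUP (13.6 CPM, 1.65 to 49.2), intervals that include those levels.

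The 4 macrophage-like clusters ran from 371 to 557 CPM of Csf1r in UT and from 345 to 568 in BUP. The C1q cluster was highest, at 557 and 568 CPM, and the Cxcl3 and Thbs1 cluster had 426 (414 to 438) and 363 CPM (350 to 377). An unnamed cluster with osteoclast genes (Ctsk, Acp5) and the dendritic cell gene Cd209a had 206 (175 to 241) and 492 CPM (439 to 550), a log2 ratio of 1.25 (0.97 to 1.54). It held 84 and 58 cells, and the 5 richest held 29.7% and 47.4% of the UMIs. There the summed level of 5 macrophage markers (C1qa, C1qb, C1qc, Apoe and Ms4a7) was 519 and 1219 CPM, and its part in the result was not tested.

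Csf2ra, the GM-CSF alpha chain, was level between the libraries in both myeloid classes. Neutrophil-like cells had 330 (299 to 362) and 327 CPM (294 to 362), a log2 ratio of -0.01 (-0.22 to 0.19), and macrophage-like cells 321 (314 to 327) and 330 CPM (321 to 339), a ratio of 0.04 (-0.01 to 0.09). The intervals of these 2 classes overlapped in each library. Monocyte-like cells were close, at 339 and 345 CPM. In T-like, NK-like and tumor-like cells Csf2ra was at 6.74 to 22.4 CPM, and 0.953% to 3.90% of thinned cells held it, against 45.3% and 42% of neutrophil-like and 46.1% and 47.5% of macrophage-like cells (unthinned 42.7% and 48.8%, and 86.1% and 85.9%). Tumor-like cells had 9.79 and 6.74 CPM, a log2 ratio of -0.54 (-0.77 to -0.30), short of 1.5-fold. After thinning, 2.45% (1.62 to 3.55) and 0.953% (0.605 to 1.43) of them held it, and the ratio was -1.39 (-2.20 to -0.59). Of 10 alternatives there, 5 were past 1.5-fold. The macrophage markers of those cells were at 321 and 167 CPM, and their part was not tested.

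Csf2rb, the shared beta chain, was highest in neutrophil-like cells among the 6 classes, at 423 (389 to 460) and 460 CPM (421 to 502), a log2 ratio of 0.12 (-0.06 to 0.30). Macrophage-like cells had 227 (221 to 232) and 281 CPM (273 to 290), a ratio of 0.31 (0.25 to 0.37), short of 1.5-fold. Their clusters differed more from each other than the libraries did, with 325 and 343 CPM in Cxcl3 and Thbs1 cells, 164 and 214 in C1q cells and 133 and 159 in cycling C1q cells. Migratory dendritic-like cells had 524 (466 to 588) and 442 CPM (389 to 500). In the Ctsk, Acp5 and Cd209a cluster Csf2rb was lower in BUP, at 435 (389 to 485) and 265 CPM (226 to 308), a ratio of -0.72 (-0.99 to -0.44), where Csf1r was higher. The neighbor Csf2rb2 had 71.4 and 81.4 CPM in macrophage-like cells, a ratio of 0.19 (0.08 to 0.29), in the same direction as Csf2rb.

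Outside the myeloid classes Csf2rb met the rule for a difference in 3 classes, each at a low level. Tumor-like cells had 9.28 (8.18 to 10.5) and 5.93 CPM (5.27 to 6.65), a log2 ratio of -0.65 (-0.89 to -0.40), and the 5 macrophage markers there were at 321 and 167 CPM. NK-like cells had 15.5 (11.6 to 20.2, 54 UMIs) and 8.38 CPM (5.12 to 12.9, 20 UMIs), a ratio of -0.89 (-1.70 to -0.12), beside macrophage markers at 229 and 207 CPM. With a stricter cell filter the NK-like ratio was 0.021 and with 30 principal components -0.045, and it was -0.24 (-2.93 to 2.12) in thinned cells. Of 10 alternatives, 9 kept the sign and 7 stayed past 1.5-fold, between -1.27 and 0.021. The tumor-like ratio was -0.22 (-1.11 to 0.72) in thinned cells and -1.38 once the highest doublet scores were removed. Fibroblast-like cells had 0 UMIs in 15 UT cells and 73 in 64 BUP cells (51.1 CPM). With UT set at 3 counts this was 4.97-fold higher, and the exact interval of the log2 ratio began at 1.98. Of those 73 UMIs 80.8% lay in 5 cells, and the macrophage markers there were at 37.7 and 366 CPM. The part of macrophage RNA in these 3 differences was not tested.

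Both chains of the GM-CSF receptor were seen together in 21.4% (16.7 to 26.7) and 21.2% (16.1 to 27.2) of thinned neutrophil-like cells and in 16.7% (15.3 to 18.2) and 20.3% (18.2 to 22.5) of macrophage-like cells. The products of the separate shares were 22.0% and 22.7%, and 16.7% and 19.1%, so the chains were found together about as often as their separate shares give. A Csf1 UMI beside a Csf1r UMI was found in 6.88% and 7.08% of neutrophil-like and in 2.48% and 3.17% of macrophage-like cells at this depth. The products of the separate shares were 6.10% and 8.02%, and 2.73% and 3.43%. In tumor-like cells that pair was seen in 0 of 1100 and 8 of 2413 cells (0% and 0.332%), against products of 0.384% and 0.322%. Of the pairs counted in neutrophil-like cells, Csf1 with Csf3r, which is not its receptor, was the most frequent, at 37.7% and 46.9%, against products of 39.1% and 47.2%.

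Csf3r, the G-CSF receptor, was the neutrophil member of the family. Neutrophil-like cells had 1446 (1382 to 1512) and 1603 CPM (1529 to 1680), a log2 ratio of 0.15 (0.05 to 0.24), and 83.7% and 91.2% of thinned cells held a UMI (unthinned 81.2% and 86.8%). They held 39.1% and 39.2% of all Csf3r UMIs although they were only 8.63% and 6.26% of cells. Monocyte-like cells had 92.4 (77.6 to 109) and 69.8 CPM (52.6 to 90.9).

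Macrophage-like cells had 52.3 (49.8 to 55.0) and 65.4 CPM (61.3 to 69.6) of Csf3r, a log2 ratio of 0.32 (0.20 to 0.44). The share of these cells with a UMI was 27.8% and 25.1%, or 8.50% and 8.18% after thinning, where the log2 ratio was 0.14 (-0.15 to 0.43), an interval that includes 0. The difference sat in the C1q cells, with 59.4 and 102 CPM (0.78, 0.62 to 0.93), and in their cycling counterparts, with 49.9 and 95.9 CPM (0.94, 0.45 to 1.42), though 72.7% of the 55 BUP UMIs of the latter lay in 5 cells. In the Cxcl3 and Thbs1 cluster the ratio was -0.11 (-0.36 to 0.13). The 8 neutrophil markers were at 1720 and 4912 CPM in the C1q cells and at 1771 and 2855 in the cycling ones, and their part in the result was not tested.

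In T-like cells Csf3r was lower in BUP, at 15.6 (12.2 to 19.5, 75 UMIs) and 4.88 CPM (3.34 to 6.89, 32 UMIs), a log2 ratio of -1.67 (-2.32 to -1.06). It was found in 20 of 629 and 16 of 868 cells, with 68.0% and 59.4% of the UMIs in 5 cells and 8 positive cells in each library in the top 6% of doublet scores. The neutrophil markers there were at 552 and 360 CPM, and the ratio was -1.05 with a stricter cell filter, -0.99 without the highest doublet scores and -0.89 (-2.24 to 0.41, from 13 and 10 UMIs) in thinned cells, an interval that includes 0. Tumor-like cells had 5.13 (4.32 to 6.04) and 3.14 CPM (2.66 to 3.67), a ratio of -0.71 (-1.05 to -0.37), with neutrophil markers at 223 and 146 CPM, and 31 of the 54 and 32 of the 47 positive cells were in the top 6% of doublet scores. The ratio was -1.78 without the highest doublet scores. The part of neutrophil RNA in these results was not tested. At 2000 UMIs 1.44% and 1.01% of T-like and 1.27% and 0.373% of tumor-like cells held Csf3r. Erythroid-like cells, which should lack every member and had a median of 1032 and 1116 UMIs, held 2 UMIs of Csf3r in UT (14.1 CPM, 1.70 to 50.8) and 0 in BUP, and 11 and 4 member UMIs in all.

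**Figure D4:**
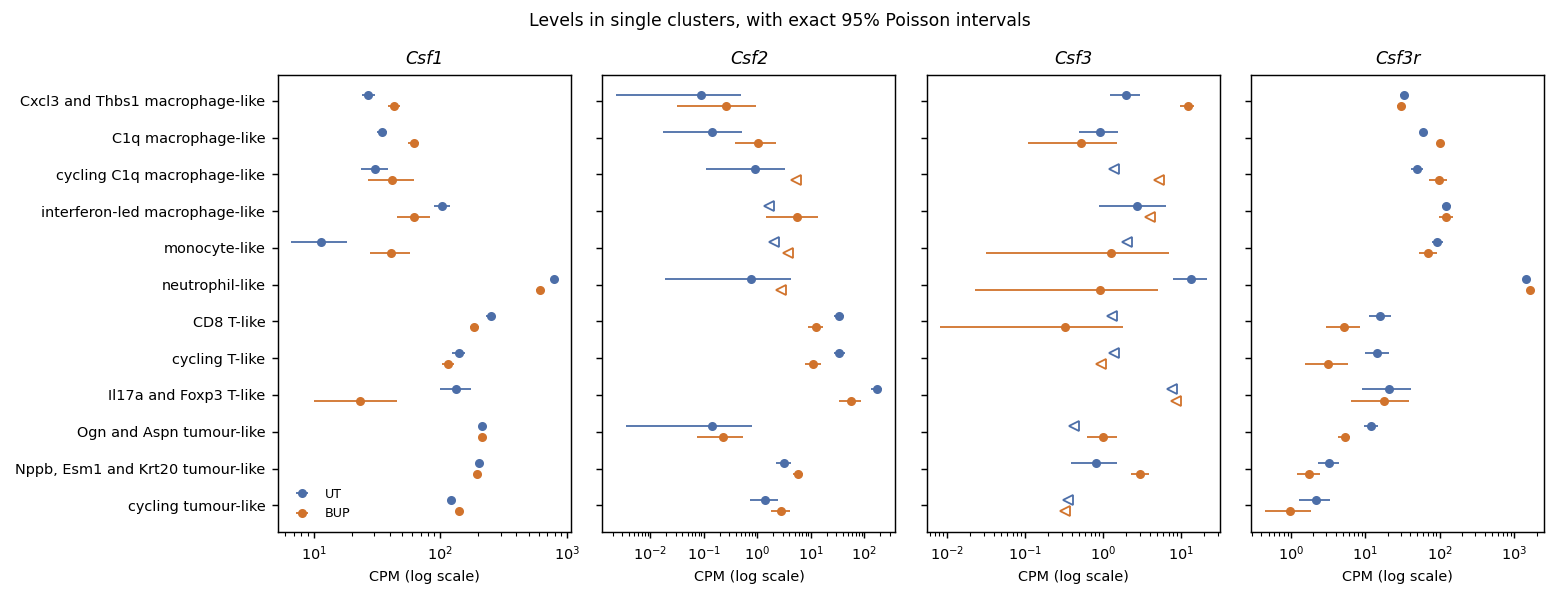
Level of Csf1, Csf2, Csf3 and Csf3r (CPM, log axis) in single clusters of the UT and BUP libraries, with exact Poisson 95% intervals. Open triangles stand for a count of 0, drawn at the level of 3 counts. Among the clusters drawn, Csf2 is highest in the Il17a and Foxp3 T-like cluster (170 and 55.5) and Csf3r in neutrophil-like cells (1446 and 1603).

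Of the related genes, a list of 11 shared receptor chains and ligands held 1 gene of 6 in macrophage-like cells that met the rule, against 6.65% of all genes in either direction. Sdc1, a cell surface proteoglycan reported to bind IL34, was at 16.9 and 32.2 CPM there (log2 ratio 0.93), and the list's median ratio over 6 genes was -0.01, against -0.08 over all genes of the class. In T-like cells Kit, the receptor for stem cell factor, was at 66.2 and 42.1 CPM (-0.65), and 1 of 3 genes with enough UMIs was lower, against 6.25% of all genes in either direction. In tumor-like cells 1 of 6 was lower, against 6.92% of genes, Csf2rb2 at 2.46 and 1.54 CPM (-0.68). In fibroblast-like cells 1 of 2 was higher, against 20%, Sdc1 at 443 and 780 CPM (0.82).

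The list of 17 signaling genes downstream of the receptors, among them the kinase Jak2 and the transcription factors Stat3 and Stat5a, differed little. In macrophage-like and T-like cells all 17 had enough UMIs and 0 met the rule, with median ratios of 0.02 and -0.17 against -0.08 over all genes of each class. Neutrophil-like cells had 1 of 16 lower, no more than the 12.7% of all genes, Socs1, an inhibitor of JAK kinases, at 121 and 79.6 CPM (-0.61). Fibroblast-like cells had 2 of 8 past the rule, against 20% of all genes, the adaptor Tyrobp higher, from 1 UMI in UT to 72 in BUP (3.88, 1.35 to 9.20), and the ubiquitin ligase Cbl lower, at 89.2 and 48.3 CPM (-0.88). Tyrobp is a myeloid adaptor, the macrophage markers of these cells were at 37.7 and 366 CPM, and 0% and 18.8% of the cells had a doublet score in the top 6%, whose part was not tested.

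Among 12 lineage transcription factors, all 12 had enough UMIs in macrophage-like cells and 2 were higher in BUP, where 6.65% of all genes met the rule in either direction. Bhlhe40, which GM-CSF signaling induces in myeloid cells, was at 172 and 296 CPM (log2 ratio 0.78, 0.72 to 0.84), and the granulocytic factor Cebpe at 11.7 and 18.1 CPM (0.62, 0.39 to 0.86), while the list's median was -0.10. The 8 neutrophil markers were at 1408 and 2842 CPM in the same macrophage-like cells, and their part in these differences was not tested. In neutrophil-like cells Irf8, a factor of the monocyte and dendritic lineages, was lower at 32.4 and 16.5 CPM (-0.98), as was Mitf at 46.8 and 24.7 CPM (-0.92). They were among 3 lower of 8, against 12.7% of all genes in either direction. In T-like cells Maf (-1.02) and Spi1 (-0.68) were lower and Mitf (0.84) higher among 9. Spi1, which encodes the myeloid factor PU.1, was also lower in tumor-like (-0.59) and NK-like cells (-1.32), and Bhlhe40 was higher in fibroblast-like cells (1.15). These classes had 2 of 10 lower, 1 of 8 lower and 2 of 7 higher, against 6.92%, 5.94% and 20% of all genes in either direction.

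Of 7 cytokines that induce colony-stimulating factors, 5 had enough UMIs in macrophage-like cells and 2 were higher in BUP, where 6.65% of all genes met the rule in either direction. Il6 was at 5.36 and 13.1 CPM (log2 ratio 1.29, 0.97 to 1.60) and Il1a at 158 and 253 CPM (0.68, 0.62 to 0.74), and Il1b, at 1305 and 1907 CPM (0.55, 0.52 to 0.57), was just short of 1.5-fold. The list's median was 0.55 against -0.08 over all genes of the class. The neutrophil markers of the class were at 1408 and 2842 CPM, and the Cxcl3 and Thbs1 cluster, which has Il1a among its 10 leading genes, was 49.7% of its cells in UT and 60.4% in BUP. Their part in these differences was not tested. In tumor-like cells Il6 (0.433 and 0.991 CPM, 1.19) and Ifng (1.41 and 2.71 CPM, 0.94) were higher and Il1b (69.3 and 43.0 CPM, -0.69) lower. These were 2 higher and 1 lower of 5, against 6.92% of all genes in either direction. In the same cells 5 T cell markers (Cd3d, Cd3e, Cd3g, Trac and Trbc2) summed to 17.4 and 35.9 CPM and the 5 macrophage markers to 321 and 167 CPM, and their part in these differences was not tested. Il1b was also lower in T-like (-1.03) and NK-like cells (-1.18), 2 classes in which it is at trace level relative to myeloid cells. It was the 1 gene lower of 4 and of 3, against 6.25% and 5.94% of all genes in either direction. The 8 neutrophil markers were at 552 and 360 CPM in T-like and 342 and 260 CPM in NK-like cells, and their part was not tested.

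The genes most like each receptor in level across 54 points (each cluster in each library, 13340 genes, log2 of CPM + 1) were myeloid genes. Csf1r went with Clec4a3, Lyz2 and Cd68 (Pearson r 0.958, 0.955 and 0.953), Csf2ra with Spi1, Prkcd and Lyn (0.962, 0.958 and 0.958), Csf2rb with Spi1, Clec7a and Csf2ra (0.944, 0.938 and 0.936), and Csf3r with Trem1, Ankrd33b and S100a8 (0.929, 0.928 and 0.926). Il34 went with Dzip1l, Platr22 and Plekhh2 (0.948, 0.946 and 0.945), and Csf2 with Trgv2, Neb and 4930417O13Rik (0.888, 0.873 and 0.865). Csf1 had no close partner, with Ahi1 first at 0.755 before Egr1 (0.730) and Gpsm1 (0.706), and Csf3 none above 0.521 (C5ar2, then Gm31416 at 0.490 and Bnip3 at 0.482). The points share 2 libraries and free RNA, so these values are descriptions.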

How the data were processed

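Single-cell RNA was measured in 2 libraries with 10x 5' chemistry. The authors deposited raw UMI counts per gene and cell, made with Cell Ranger 8.0.1 on GRCm39 per the labels, and used Seurat 5.0.1. Cells with over 100 UMIs and under 20% mitochondrial UMIs were kept (13939 cells, the number the study's methods also give). The deposited counts were clustered without the members with Seurat 5.3.0 in R 4.3.3 (2000 variable genes, of which 5 members were removed, 20 principal components, resolution 0.5), giving 27 clusters that were named by markers. The rules that set mixed clusters apart were made with the clusters in view. No doublets were removed, and Scrublet scores (scanpy 1.11.5) served one alternative. UMIs were summed per library and class, and intervals were computed with scipy 1.17.1 in Python 3.11.15. Gene positions and promoters were read from a GRCm39 genome with its GENCODE annotation. A count of 0 was set at 3 counts where a ratio was given. Shares were also computed in cells thinned to 2000 UMIs, shallower cells left out. The statistics were tested on simulated data. Every member was named, and of the related lists at most the 3 genes per list and class with the widest ratio among those past the rule. For each member the 3 genes with the highest correlation were named, among genes with at least 200 UMIs and over points with at least 20000 UMIs. The members and the gene and marker lists were chosen with earlier results of these data known.

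The alternatives were a stricter cell filter (1000 UMIs, 500 genes, 10% mitochondrial), resolution 1.0, 30 principal components, members kept among the variable genes, thinning, equal weight per cell, another scaling, removal of high doublet scores, leaving out the 5 richest cells, and other fold and UMI minimums. Holding the cluster mix fixed was added after seeing the data. Some items are not reported here.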

Additional observations from a re-analysis of the deposited data

Results flagged for a closer look

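Csf2 went in opposite directions in a pair of cell classes, with a log2 ratio of BUP over UT of 0.60 in tumor-like and -1.68 in T-like cells. The difference between these effects was not tested, since each condition had 1 library. Csf2rb was likewise lower in BUP in tumor-like (-0.65) and NK-like cells (-0.89) and higher in fibroblast-like cells. In the latter, 0 UMIs in UT set at 3 counts gave a log2 ratio of 2.31, and the exact interval began at 1.98. The difference between these classes was not tested either. Macrophage markers of the same cells were at 321 and 167 CPM (tumor-like), 229 and 207 CPM (NK-like) and 37.7 and 366 CPM (fibroblast-like) in UT and BUP.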

How the results depend on the processing

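For 30 log2 ratios, 299 alternative values were computed, of which 240 lay within the interval of the reported value. Of those outside it, 1 turned the direction of a difference past the rule, Csf2rb in NK-like cells at 0.021 with the stricter cell filter. Thinning to 2000 UMIs gave -1.18 for Csf2 in T-like, -0.18 for Csf1 and -0.25 for Csf2ra in neutrophil-like and 3.22 for Csf3 in macrophage-like cells. Equal weight per cell gave -0.62 for Csf1 and 0.20 for Csf2ra in neutrophil-like and 3.15 for Csf3 in macrophage-like cells, and Csf3 there was 2.84 without the 5 richest cells. Csf1r in macrophage-like cells was -0.060 when scaled by the median ratio of genes and -0.085 with the cluster mix held fixed. A fold of 2 left 1 of 4 members past the rule in tumor-like and 0 of 1 in NK-like cells. A minimum of 200 UMIs left 2 in tumor-like, 1 of 2 in T-like and 0 of 1 in NK-like, fibroblast-like and macrophage-like cells. The cause of these shifts was not tested. No paired analysis was possible because each condition had 1 library. In all, 17 of the 48 pairs of a member and a class had under 50 UMIs, and no ratio was called for them.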
